A study of Mus musculus with 12 samples.

Results

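The genes described here are the mouse kinesins, motor proteins that walk along or take apart microtubules, and the centromere protein genes, whose symbols begin with Cenp. They were chosen by symbol: every gene named Kif plus a number, or Cenp plus a letter, with names of pseudogenes left out. The rule gave 61 of the 57180 genes in the table, namely 40 genes with Kif symbols, called kinesins here, and 21 Cenp genes. Among the 40 is Kif16bos, an antisense gene rather than a motor, which is counted with the other kinesins below. The kinesins were split into 11 mitotic kinesins, 13 transport kinesins (the kinesin-1, kinesin-2 and kinesin-3 families) and 16 other kinesins. Of the 61 genes, 48 reached 1 TPM in at least 3 libraries and were tested: all 11 mitotic kinesins, 10 transport kinesins, 6 other kinesins and all 21 Cenp genes. TPM is a transcript level scaled for gene length and library total, so levels of different genes can be compared.

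RNA came from HC11, a mouse mammary epithelial cell line that can be brought to make milk proteins. The cells were labelled as wild type (called control here, "scr" in the titles) or as a knockdown of Snail1, a transcriptional repressor encoded by Snai1. All cells were sorted by flow cytometry, left overnight in RPMI with serum, EGF and insulin to form aggregates, and put through a migration assay in vitro. RNA was taken at 0 h and at 36 h, which gave 4 groups of 3 libraries: control cells at 0 h (numbered 1, 2 and 3), the same at 36 h (1, 3 and 4), and the knockdown at each time (1, 2 and 3). The labels do not say how the knockdown was made, whether the libraries of a group were separate cultures, or what "mix" means in the title of control 36 h library 4. The p-values therefore measure only the spread between these samples. Snai1 itself stood at 0.48 to 0.79 TPM in the knockdown and at 1.34 to 2.51 TPM in control at 0 h, and at 0.20 to 0.58 TPM and 2.69 to 3.92 TPM at 36 h, with no overlap at either time.

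Epithelial markers were present in every library (Krt14 at 2206 TPM or more, Epcam at 214 TPM or more). At 0 h Epcam stood at 1098 to 1161 TPM in control and 214 to 833 TPM in the knockdown. Krt18 stood at 77.1 to 91.6 and 8.43 to 58.3 TPM at that time. At 36 h the ranges were 669 to 697 and 483 to 498 TPM for Epcam. Those of Krt14 were 12351 to 14422 and 15744 to 20984 TPM, higher in the knockdown. Ranges overlapped for Krt8, Krt5 and Cdh1 at both times, Krt14 at 0 h and Krt18 at 36 h. For adipocytes, Adipoq was at 0 in all 12 libraries and Plin1 in 5, with at most 0.27 TPM elsewhere. Of the immune markers, Ptprc was at 0 in 8 libraries, Cd3e in 9 and Adgre1 in 11, with at most 0.22 TPM elsewhere, whereas Cd68, a lysosomal protein abundant in macrophages, was above 0 in all 12. Cd68 stood at 9.81 to 14.7 TPM in control and 5.35 to 10.0 TPM in the knockdown at 0 h, and at 3.13 to 3.55 and 2.11 to 2.34 TPM, without overlap, at 36 h. At 0 h the summed level of 5 fibroblast markers was 14.4 to 17.2 TPM in control and 4.70 to 15.9 TPM in the knockdown, and that of 3 endothelial markers 2.97 to 3.86 and 0.49 to 3.89 TPM. At 36 h these sums were 12.9 to 23.7 and 7.82 to 13.6 TPM for fibroblast markers, and 3.54 to 7.02 and 4.36 to 6.82 TPM for endothelial markers. The endothelial sums were mostly Pecam1 (0.41 to 6.98 TPM), with Kdr at up to 0.32 TPM and Cdh5 at up to 0.02 TPM. The part of all these markers in the results was not tested. The depth of the libraries is unknown, since TPM keeps no counts. Knockdown 0 h library 2 stood apart: mitochondrially encoded genes made up 13.99% of its TPM, against 1.45% to 6.15% in the other 11 libraries. Its highest correlation with another library was 0.874, against 0.952 to 0.971 for the other 11. In knockdown 0 h library 3, 27715 genes were above 0, against 20932 to 23427 in the other 11.

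Kinesins use ATP to move along microtubules. Mitotic kinesins build the spindle, move and align chromosomes and complete cell division, and their mRNAs are made mainly in the G2 and M phases of the cell cycle, whereas transport kinesins carry vesicles, organelles and cilium components in cells that need not divide. Cenpa, a histone H3 variant, marks the centromere, the constitutive centromere-associated network (CCAN) of Cenp proteins binds it through the cell cycle, and the motor Cenpe and the corona protein Cenpf join the kinetochore for mitosis. In bulk RNA, fewer dividing cells and less RNA per dividing cell cannot be told apart.

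At 0 h nearly all mitotic kinesins and most Cenp genes were lower in the knockdown than in control, while most transport kinesins were not called. Of 11 mitotic kinesins, 10 were called lower and none higher, with a median log2 fold change of -2.15, where limma called 14.6% of all 14426 tested genes lower and 3.1% higher and the median of all genes was -0.41. Calls were made at adjusted p-values under 0.05 (limma on log2(TPM + 1), Benjamini-Hochberg over all tested genes). Of 10 tested transport kinesins, only Kif5b was called lower (median -0.43), and of 6 other kinesins none was called (median -0.41). An unadjusted p under 0.05 was seen for 1 of these 6, and for 5381 of all 14426 tested genes. Of 21 Cenp genes, 13 were called lower and none higher (median -1.04). The groups did not overlap, with the knockdown lower, for 10 mitotic kinesins, 3 transport kinesins, 1 other kinesin and 15 Cenp genes, where 30.7% of all tested genes did the same.

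**Figure D1:**
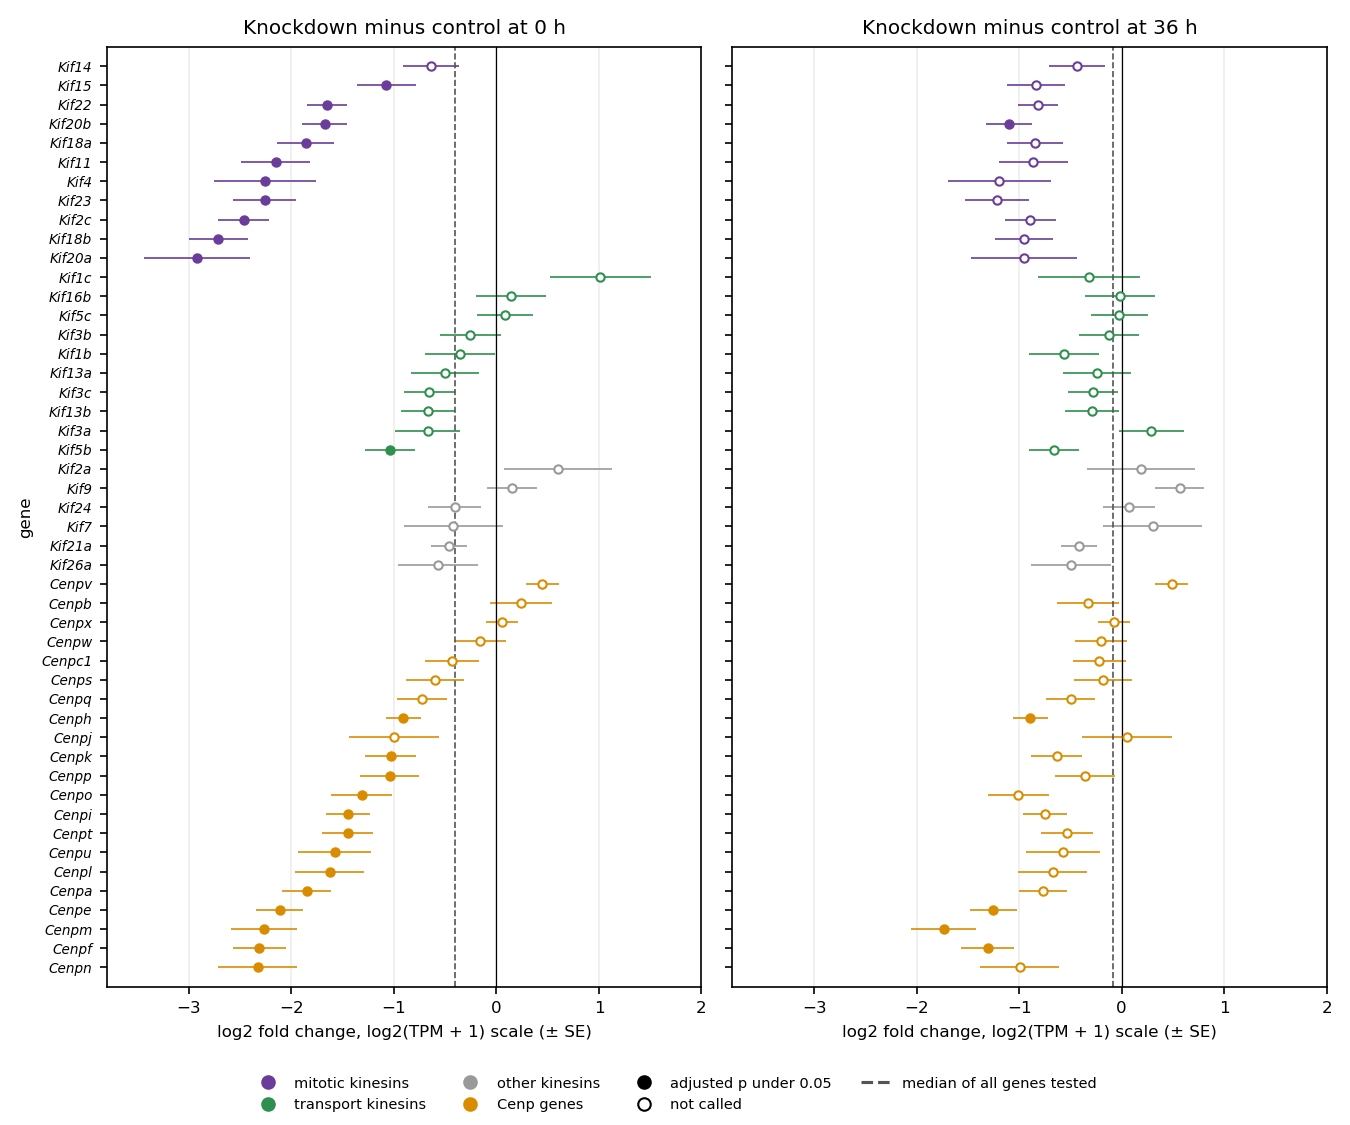
Log2 fold change (log2(TPM + 1) scale, horizontal axis) of the 48 tested kinesins and Cenp genes, knockdown minus control, at 0 h (left) and 36 h (right); bars are the standard error, filled points have an adjusted p under 0.05, and the dashed line is the median of all tested genes (-0.41 and -0.09). At 0 h 10 of 11 mitotic kinesins and 13 of 21 Cenp genes are filled, and at 36 h 1 and 4 are.

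Those calls rest on the spread shared by all 4 groups. In a fit of the 6 libraries at 0 h alone, the adjusted p-values of the 10 mitotic kinesins were 0.0533 to 0.167 and none was called, as for the Cenp genes, and limma called 9 of all genes lower and 7 higher. After median-of-ratios scaling, which sets each library by the median ratio of its genes to their mean, the median of all genes was 0.02, and 10.2% were called lower and 8.66% higher. The class medians were then -1.68 for mitotic kinesins (9 called lower), 0.05 for transport kinesins and -0.61 for Cenp genes (10 called lower, 1 higher). With each library left out in turn, 8 to 11 mitotic kinesins and 9 to 16 Cenp genes were called, while the share of all genes called lower ranged from 4.39% to 34.8%. The scaling factor of knockdown 0 h library 2 was 0.504, against 0.897 to 1.22 in the others. Without that library the median of all genes was -0.16. The counts of mitotic kinesins and Cenp genes were then 10 (median -1.89) and 15 (14 lower, 1 higher), with 16.5% of all genes called lower and 6.74% higher. Without library 3 of that group they were 11 and 16, all lower, with 34.8% of all genes called lower and 5.82% higher.

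The promoters of the members are of interest because genes of the G2 and M phases commonly carry a cell cycle genes homology region (CHR) near the transcription start, often with CCAAT boxes upstream, which the factor NF-Y binds. RefSeq windows of 250 bases before and 50 after the start, in build GRCm38.p6, were matched by symbol for 53 of the 61 genes. The windows below are shown because they put a CHR match at or just after the start in 3 mitotic kinesins and 2 Cenp genes that were called lower at 0 h, beside a transport kinesin that was not called and has neither motif. They run 5′ to 3′ on the gene's strand, from 160 bases before the start to 30 bases from it. They lie at chr11:102925095-102925284 (minus strand) for Kif18b, chr9:61946770-61946959 (minus) for Kif23, chrX:100625905-100626094 (plus) for Kif4, chr1:189688057-189688246 (minus) for Cenpf, chr5:30666726-30666915 (plus) for Cenpa and chr13:46929689-46929878 (minus) for Kif13a. The study's own build, GRCm39, differs from this one. Capitals mark CHR letters (TTTGAA) and CCAAT, which reads ATTGG where the match is on the other strand.
Kif18b: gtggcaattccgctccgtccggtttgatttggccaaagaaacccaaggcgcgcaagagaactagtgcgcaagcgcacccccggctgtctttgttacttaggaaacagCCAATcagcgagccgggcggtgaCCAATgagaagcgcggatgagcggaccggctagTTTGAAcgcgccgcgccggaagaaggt
Kif23: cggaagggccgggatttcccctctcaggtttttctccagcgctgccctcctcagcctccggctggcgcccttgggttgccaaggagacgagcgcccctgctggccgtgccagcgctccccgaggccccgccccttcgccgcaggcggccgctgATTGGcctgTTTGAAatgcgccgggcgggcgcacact
Kif4: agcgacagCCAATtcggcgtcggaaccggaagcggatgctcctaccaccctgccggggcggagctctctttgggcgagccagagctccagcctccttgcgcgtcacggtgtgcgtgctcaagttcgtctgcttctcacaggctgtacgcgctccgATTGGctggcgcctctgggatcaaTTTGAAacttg
Cenpf: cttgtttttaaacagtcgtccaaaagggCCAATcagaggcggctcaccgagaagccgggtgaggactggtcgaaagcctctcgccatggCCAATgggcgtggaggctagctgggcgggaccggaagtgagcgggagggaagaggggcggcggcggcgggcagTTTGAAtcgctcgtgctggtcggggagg
Cenpa: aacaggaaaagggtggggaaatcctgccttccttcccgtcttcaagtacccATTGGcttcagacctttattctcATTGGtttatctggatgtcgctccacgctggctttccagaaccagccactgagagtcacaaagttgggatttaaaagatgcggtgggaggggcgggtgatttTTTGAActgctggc
Kif13a: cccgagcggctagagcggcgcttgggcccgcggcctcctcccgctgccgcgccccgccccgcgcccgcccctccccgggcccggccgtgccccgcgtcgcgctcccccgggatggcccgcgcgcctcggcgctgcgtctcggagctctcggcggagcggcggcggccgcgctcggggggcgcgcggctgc

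The CHR was searched as TTTGAA or TTCGAA and the NF-Y box as CCAAT, on both strands of the whole 300-base windows. The CHR was in 9 of 10 mitotic kinesins with a window, 1 of 10 transport kinesins, 3 of 12 other kinesins and 6 of 21 Cenp genes, where 21.7% of all 27025 genes with a window held it and 16.7% of the tested genes. CCAAT was in 6 of 10, 3 of 10, 6 of 12 and 14 of 21, where 41.1% of all genes held it. Both motifs stood together in 6 mitotic kinesins, no transport kinesin, 3 other kinesins and 6 Cenp genes, against 9.65% of all genes. The transport kinesin with a CHR was Kif1a, in the second of its windows, and Kif1a was at 0 TPM in all 12 libraries. The first base of the CHR stood at position 4 from the start in Kif18b, 3 in Kif23, 20 in Kif4, 3 in Cenpf and 17 in Cenpa, and at 8 and 14 in Kif20b. In Kif2c it lay 103 bases before the start, on the other strand. Of the 13 Cenp genes called lower at 0 h, 5 held a CHR and 10 held CCAAT, and of the 8 not called, 1 and 4 did. Among the mitotic kinesins, Kif18a held neither motif but was called lower at 0 h, and Kif14 held both but was not called. Kif20a and Kif5b, both called lower at 0 h, had no window.

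Of the 53 members with a window, only Kif15, Kif18a and Cenpl held the E2F sites TTTGGCGC or TTTCGCGC. These sites were in 0.929% of all genes with a window and 1.94% of the tested genes. The E-box CAGGTG, a sequence that Snail proteins can bind, was in 2 of 10 mitotic kinesins, 3 of 10 transport kinesins, 4 of 12 other kinesins and 5 of 21 Cenp genes, where 22.6% of all genes held it. Of the 102 matches in members, 2 overlapped another motif, a CCAAT and a CHR in Cenpw. A match says that the letters are there, not that a protein was bound.

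**Figure D2:**
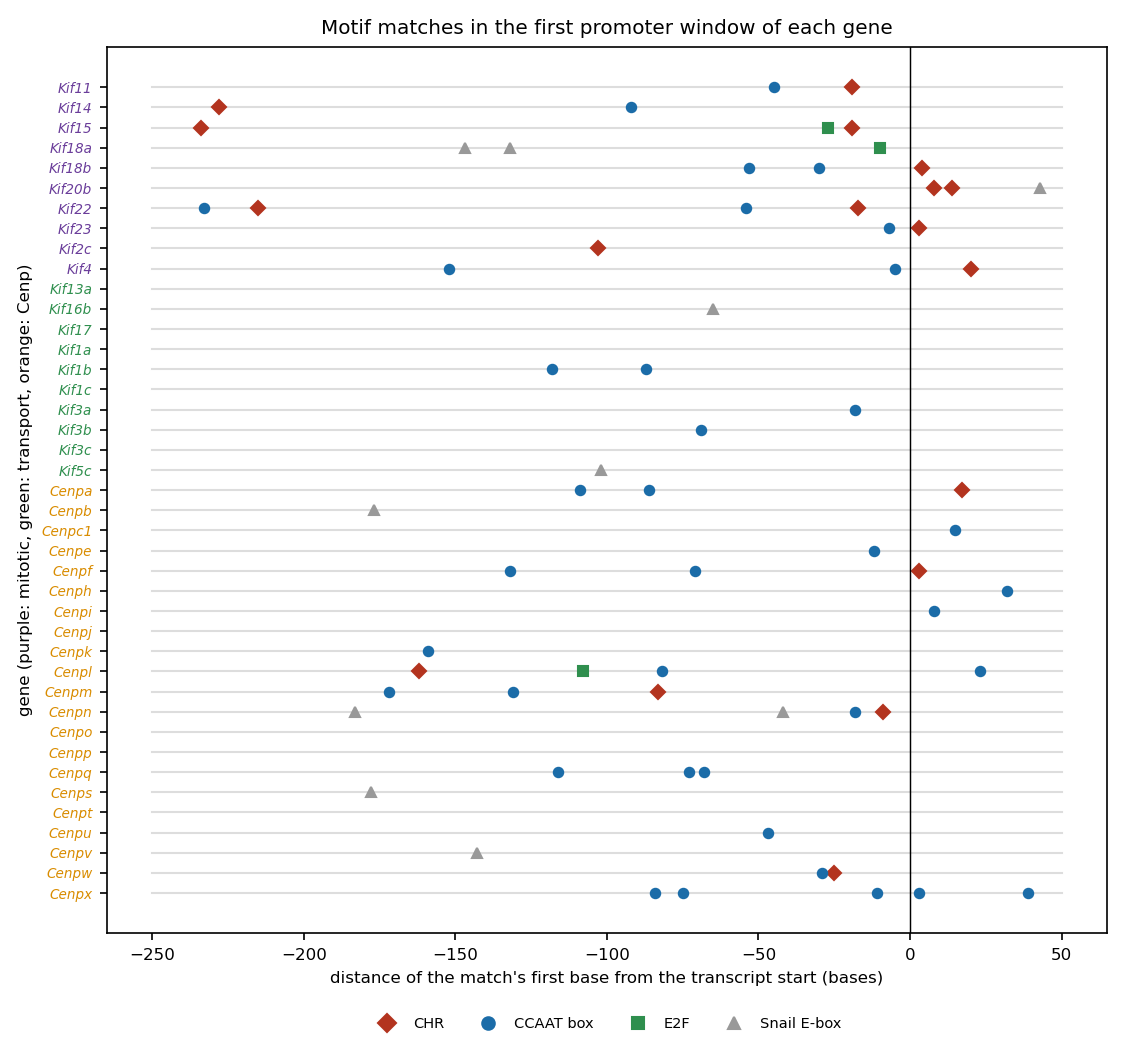
Matches of 4 motifs in the first RefSeq promoter window of each mitotic kinesin (purple names), transport kinesin (green) and Cenp gene (orange); the horizontal axis is the distance of the match's first base from the transcript start in bases. CHR matches (red) are in 9 of 10 mitotic kinesins, near the start in most of them, and in none of the transport kinesin windows drawn.

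Among the motors that set up the spindle, Kif11, which slides antiparallel microtubules apart to separate the poles, stood at 36.5, 40.0 and 36.7 TPM in control at 0 h and at 6.18, 5.58 and 12.98 TPM in the knockdown. The groups were well apart, the knockdown being at 21.9% of the control mean, a log2 fold change of -2.15 (SE 0.337, limma adjusted p = 0.00335). Kif15, a spindle motor that can back up Kif11, stood at 12.5, 9.93 and 8.91 TPM against 2.46, 6.36 and 5.19 TPM. The groups did not overlap, but its fall was the smallest among the mitotic kinesins called (-1.07, SE 0.285, adjusted p = 0.0277). The call of Kif15 was lost with median-of-ratios scaling (-0.61, adjusted p = 0.261), with knockdown 0 h library 1 left out (0.0557) and with any control 0 h library left out (0.0598 to 0.109).

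The chromokinesins, which bind chromosome arms and push them toward the spindle equator, were lower as well. Kif22 stood at 70.7, 71.0 and 82.4 TPM in control at 0 h and at 20.7, 28.2 and 20.9 TPM in the knockdown, a fold change of -1.65 on the log2 scale (SE 0.195, adjusted p = 0.00122). The lowest Kif22 value among the knockdown libraries was not that of library 2, unlike for Kif4. Kif4, which also shortens the microtubules of the central spindle, stood at 17.1, 15.9 and 18.5 TPM against 2.03, 1.31 and 6.77 TPM. Library 3 of the knockdown was the highest of its group, and the change was -2.26 (SE 0.502, adjusted p = 0.0143). It was not called without control 0 h library 1 (adjusted p = 0.0540) or 3 (0.0526). Pseudogenes of both are in the table, at up to 0.13 TPM for Kif4 and at 0 for Kif22.

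The 3 mitotic kinesins that work on microtubule ends were lower in every knockdown library than in any control library at 0 h. Kif2c, the depolymerase of centromeres that corrects faulty attachments, stood at 46.1, 43.3 and 43.3 TPM in control at 0 h and at 9.51, 4.67 and 8.22 TPM in the knockdown. The highest knockdown library was far below the lowest control library, and the change was -2.47 (SE 0.247, adjusted p = 0.00086). Kif18b, which works on the ends of astral microtubules, stood at 42.4, 39.7 and 46.1 TPM against 6.90, 3.39 and 7.5 TPM. It was at 13.9% of the control mean, the lowest share among the mitotic kinesins (-2.71, SE 0.286, adjusted p = 0.000938). Kif18a, which dampens chromosome movement at the metaphase plate, stood at 13.3, 14.8 and 12.8 TPM against 3.57, 1.56 and 4.53 TPM, and changed by -1.86 (SE 0.274, adjusted p = 0.00263).

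The motors of the central spindle and the cleavage furrow held both the most abundant and the least abundant mitotic kinesin. Kif20a, which brings the chromosomal passenger complex to the central spindle, stood at 89.8, 78.6 and 97.95 TPM in control at 0 h and at 16.3, 2.98 and 22.8 TPM in the knockdown. Library 2 of the knockdown was the lowest by far, and the change was -2.92 (SE 0.518, adjusted p = 0.00569). Kif23, the motor of centralspindlin, stood at 54.4, 60.9 and 61.7 TPM against 12.5, 6.46 and 18.4 TPM (-2.26, SE 0.309, adjusted p = 0.00196). Kif20b, which acts in the last steps of cytokinesis, stood at 42.0, 39.8 and 48.7 TPM against 14.6, 15.9 and 9.13 TPM (-1.68, SE 0.222, adjusted p = 0.00177). For Kif20b library 2 was the highest of the knockdown, so the order of the knockdown libraries differed between genes. Kif14, which anchors citron kinase at the midbody, was low everywhere, at 1.71, 0.88 and 1.41 TPM against 0.16, 0.46 and 0.93 TPM. Its groups overlapped and its value of -0.64 was not called (adjusted p = 0.116).

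**Figure D3:**
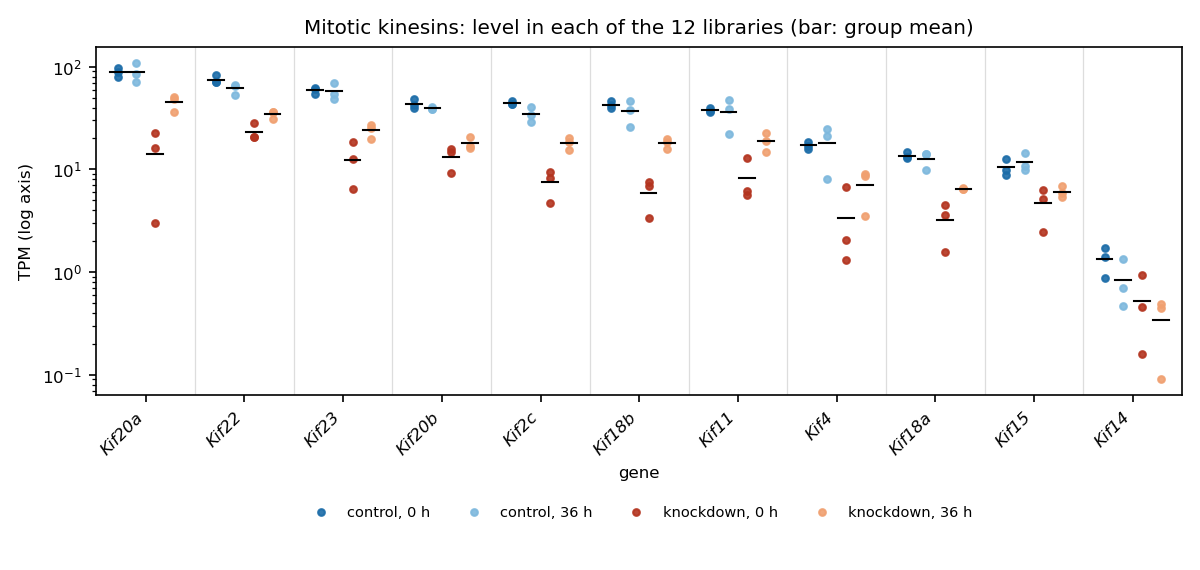
TPM (log axis) of the 11 mitotic kinesins in each of the 12 libraries, by group, with a bar at the group mean. Except for Kif14, the knockdown values at 0 h lie below every control value of that time, and the knockdown at 36 h lies between them and the control for most genes.

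Among the transport kinesins the levels were led by Kif5b, a heavy chain of kinesin-1, the general anterograde motor. It stood at 145.6, 142 and 142 TPM in control at 0 h and at 85.9, 45.9 and 83.8 TPM in the knockdown. The groups did not overlap, with a change of -1.04 (SE 0.245, adjusted p = 0.0177), the only call among transport kinesins, and it was lost without control 0 h library 1, 2 or 3 (adjusted p = 0.0583 to 0.0676). After median-of-ratios scaling it was -0.53 (adjusted p = 0.0317). Kif3a, a motor subunit of kinesin-2, which builds cilia, stood at 52.2, 36.6 and 50.3 TPM against 40.1, 15.4 and 36.9 TPM. The Kif3a groups overlapped, and -0.67 was not called (adjusted p = 0.147). Its partner Kif3b stood at 6.5, 8.49 and 6.01 TPM against 5.16, 4.54 and 7.62 TPM, with overlap (-0.25, adjusted p = 0.529).

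Of the kinesin-3 motors, which carry vesicles and endosomes, the 3 most abundant overlapped between the groups at 0 h. Kif1b stood at 19.7, 16.0 and 14.7 TPM in control and at 9.12, 11.1 and 20.5 TPM in the knockdown (-0.36, adjusted p = 0.444). Kif16b, a motor of early endosomes, stood at 15.9, 13.3 and 15.3 TPM against 12.04, 16.7 and 22.0 TPM (0.14, adjusted p = 0.763). Kif13a, whose promoter is printed above, stood at 11.3, 15.5 and 12.8 TPM against 7.01, 7.37 and 13.6 TPM (-0.50, adjusted p = 0.274). In each of these 3 genes the highest knockdown value was that of library 3. The 2 other transport kinesins without overlap at 0 h were Kif13b (-0.67, adjusted p = 0.0945) and Kif3c (-0.65, adjusted p = 0.0848). The neuronal motors Kif1a, Kif5a and Kif17 were below the filter, at no more than 0.85 TPM in any library. For Kif1c, knockdown 0 h library 2 stood at 19.1 TPM and the other 11 libraries at 1.56 to 6.47 TPM, and its value moved from 1.01 to 0.37 without that library. Kif2a, grouped with the other kinesins, did likewise, with 16.0 TPM in library 2 against 1.45 to 3.95 TPM elsewhere, and moved from 0.60 to -0.15, so its sign turned. Neither was called.

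Apart from Kif2a, the 5 other kinesins that were tested are Kif7, Kif9, Kif21a, Kif24 and Kif26a. Kif21a, at -0.47 (adjusted p = 0.0833), was the only such gene without overlap at 0 h. The remaining 10 stayed at or under 1.64 TPM in every library. Kif16bos, an antisense gene to Kif16b, was above 0 in 1 library, at 0.60 TPM, and the labels do not say whether reads were counted by strand.

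Summed over genes within each library, the mitotic kinesins came to 426, 415 and 458 TPM in control at 0 h and to 94.9, 76.8 and 117 TPM in the knockdown. The transport kinesins came to 267, 248 and 252 TPM against 172, 126 and 199.9 TPM. The ratio of these sums, which no scaling of a library changes, was 1.60 to 1.82 in the 6 control libraries of both times and 0.553 to 0.612 in the knockdown at 0 h. At 36 h it was 0.890 to 1.32 in the knockdown, above the knockdown at 0 h and below every control library. Kif5b, the only transport kinesin called at 0 h, made up much of the transport sum. It averaged 143 of the 256 TPM for control cells at 0 h, against 71.9 of 166 TPM with Snail1 knocked down. The ratio of mitotic to transport kinesins therefore leans on Kif5b and does not weigh the transport kinesins evenly. The ratio of mitotic kinesins to Cenp genes was 0.487 to 0.535 in control and 0.167 to 0.227 in the knockdown at 0 h. At 36 h it was 0.391 to 0.604 in control and 0.303 to 0.357 in the knockdown. Cenpa and Cenpx weighed heavily in the Cenp sum. For control cells at 0 h the mean sum was 842 TPM with this pair and 424 TPM without it. With Snail1 knocked down these means were 507 and 220 TPM. Cenpx itself differed little, averaging 224 TPM (control) and 232 TPM (knockdown) at 0 h, so the ratio does not weigh the Cenp genes evenly.

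**Figure D4:**
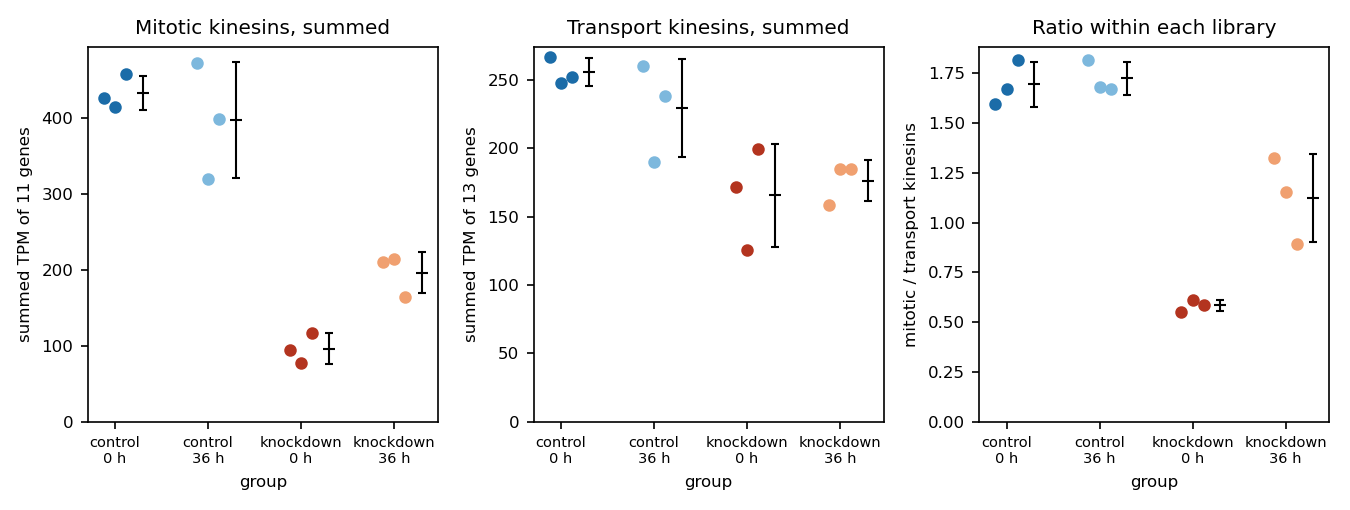
Summed TPM of the 11 mitotic kinesins (left) and the 13 transport kinesins (middle), and their ratio within each library (right), for the 12 libraries in 4 groups; points are libraries and bars are the mean ± SD of 3. The ratio is 1.60 to 1.82 in control, 0.553 to 0.612 in the knockdown at 0 h and 0.890 to 1.32 in the knockdown at 36 h.

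The Cenp genes ranged from -2.33 to 0.44 at 0 h. Cenpa, the centromeric histone, stood at 192, 199 and 193 TPM in control at 0 h and at 68.6, 34.5 and 63.5 TPM in the knockdown. The groups were far apart, at 28.5% of the control mean, with a change of -1.85 (SE 0.236, adjusted p = 0.00159). The mitotic motor Cenpe stood at 12.9, 11.3 and 10.9 TPM against 2.47, 1.10 and 2.45 TPM (-2.11, SE 0.229, adjusted p = 0.000938). Cenpf, whose promoter has the CHR at the same distance from the start as that of Kif23, stood at 28.9, 22.9 and 17.9 TPM against 3.89, 2.41 and 5.60 TPM (-2.31, SE 0.261, adjusted p = 0.001). Both values lay within the range of the 10 mitotic kinesins called (-2.92 to -1.07).

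Of the 15 CCAN genes with a Cenp symbol, 10 were called lower at 0 h, with a median of -1.04. Cenpn, which recognises the Cenpa nucleosome, stood at 38.5, 42.4 and 39.6 TPM in control and at 11.9, 2.62 and 10.7 TPM in the knockdown (-2.33, SE 0.386, adjusted p = 0.00422). Its partner Cenpl had -1.63 (adjusted p = 0.0108). Cenpm, a subunit of the Cenph, Cenpi and Cenpk complex, stood at 40.4, 37.6 and 45.5 TPM against 12.8, 5.49 and 6.41 TPM (-2.27, SE 0.318, adjusted p = 0.00217). The other 3 subunits changed less, with Cenpi at -1.45 (adjusted p = 0.00264), Cenpk at -1.03 (0.0188) and Cenph at -0.91 (0.00733). Cenpt, which links the network to the Ndc80 complex, stood at 35.8, 33.1 and 46.0 TPM against 14.6, 11.7 and 13.6 TPM (-1.45, SE 0.251, adjusted p = 0.00514). Of Cenpo, Cenpp, Cenpq and Cenpu, which share a group, all but Cenpq (-0.73, adjusted p = 0.0583) were called, at -1.32, -1.04 and -1.58. With median-of-ratios scaling the calls of Cenph (-0.42, adjusted p = 0.227), Cenpk (-0.55, 0.126) and Cenpp (-0.59, 0.0922) were lost. Cenpk and Cenpp were not called without control 0 h library 1, 2 or 3 (0.0531 to 0.108), Cenpo without 1 or 3 (0.0619 and 0.0524) and Cenpu without 1 or 2 (0.0540 and 0.0597), and Cenpp also when control 36 h library 4 (0.0502) or knockdown 36 h library 2 (0.0520) was left out.

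The CCAN genes that were not called were Cenpq, Cenpc1, the scaffold of the network (-0.43, adjusted p = 0.234), and Cenps, Cenpw and Cenpx, histone-fold proteins (-0.60, -0.16 and 0.05). Cenpx, which also acts with Cenps in DNA repair, was the most abundant Cenp gene, at 205 to 235 TPM in control and 222 to 237 TPM in the knockdown at 0 h, with overlap. With median-of-ratios scaling Cenpc1 had 0.03, Cenpw 0.34 and Cenpx 0.57, so the signs of Cenpc1 and Cenpw turned. Cenpb, which binds a repeat in centromeric DNA, stood at 11.7, 14.5 and 12.8 TPM against 12.3, 26.5 and 11.2 TPM. Library 2 alone was high, and the value went from 0.24 to -0.13 without it. Cenpj, a protein of centriole assembly despite its name, had -1.0 (adjusted p = 0.121) with overlap.

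Cenpv, which is named for a centromere role but belongs to another protein family, went the other way. It stood at 40.4, 36.9 and 34.7 TPM in control at 0 h and at 52.7, 50.2 and 50.3 TPM in the knockdown, and at 27.9, 28.6 and 29.4 TPM against 43.1, 39.4 and 39.4 TPM at 36 h. The knockdown was above control in every library of each time, as for 7.24% (0 h) and 14.8% (36 h) of all tested genes. The values of 0.44 (SE 0.161, adjusted p = 0.075) and 0.49 (adjusted p = 0.143) were not called. Without knockdown 0 h library 2 both were, at 0.46 (0.0113) and 0.49 (0.00582), and with median-of-ratios scaling it was called at 0 h (0.96, adjusted p = 0.0165). 

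**Figure D5:**
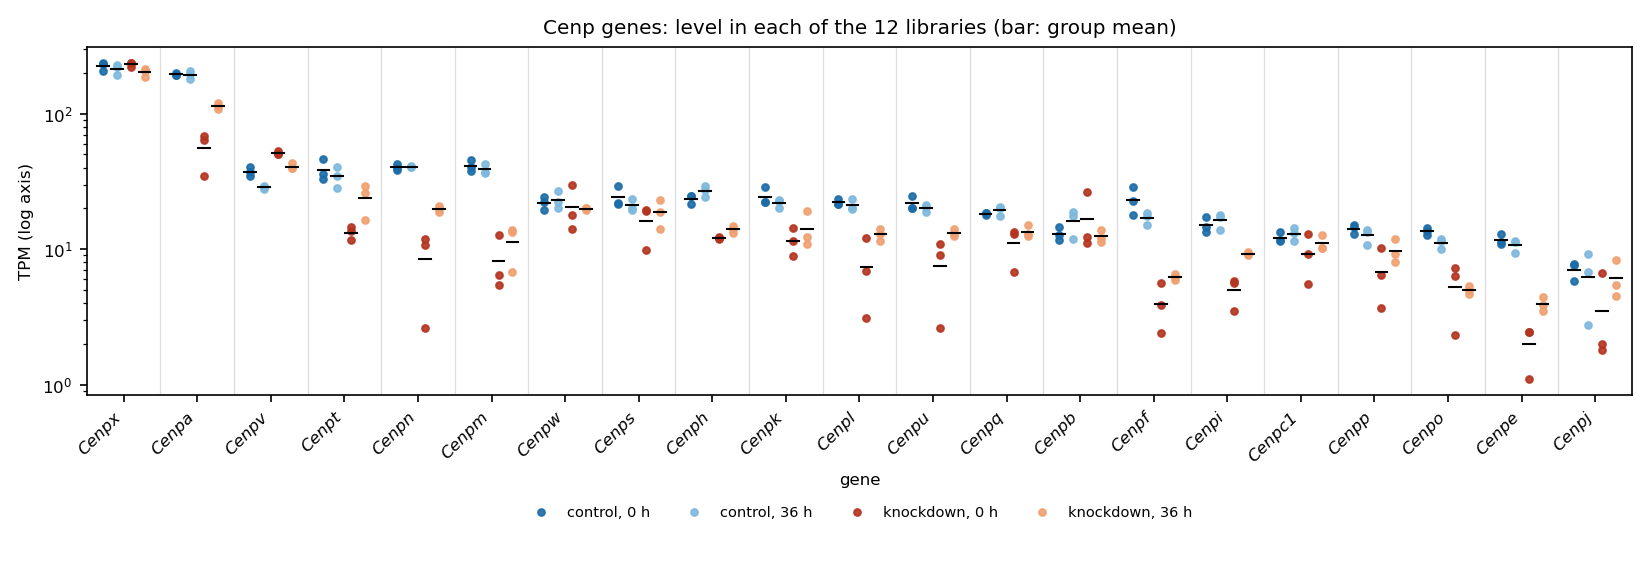
TPM (log axis) of the 21 Cenp genes in each of the 12 libraries, by group, with a bar at the group mean, ordered by mean level. Cenpa, Cenpe, Cenpf, Cenpm and Cenpn are far lower in the knockdown at 0 h, Cenpx differs little and Cenpv is higher at 0 h and 36 h.

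At 36 h the differences were smaller. Kif20b was the only mitotic kinesin called (lower), none was higher, and the median was -0.89, where 1.64% of all tested genes were called lower and 0.894% higher and the median of all genes was -0.09. All 11 values were negative, and for 8 the groups did not overlap, as for 22% of all tested genes. Kif20b stood at 38.7, 40.2 and 38.8 TPM in control libraries 1, 3 and 4 and at 16.8, 20.7 and 16.2 TPM in the knockdown (-1.10, SE 0.222, adjusted p = 0.0301). The control values lay within 2 TPM of each other and far above the knockdown. Kif22 was next, at 66.8, 53.1 and 65.0 TPM against 36.4, 36.6 and 30.8 TPM (-0.81, adjusted p = 0.0544), followed by Kif23 at 69.0, 48.9 and 54.5 TPM against 25.5, 26.9 and 19.9 TPM (-1.22, adjusted p = 0.0663). Kif2c, at 40.4, 28.9 and 33.9 TPM against 20.1, 18.5 and 15.5 TPM, had -0.89 (adjusted p = 0.0882). None of these 3 passed the threshold, though their groups did not overlap.

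Control 36 h library 3 was the lowest control library at 36 h for most mitotic kinesins. Kif18b stood at 46.7, 25.9 and 37.8 TPM in control against 19.8, 18.5 and 15.8 TPM. Kif11 stood at 47.6, 22.0 and 38.8 TPM against 18.9, 22.6 and 14.8 TPM, and Kif4 at 24.7, 8.12 and 21.0 TPM against 8.58, 9.02 and 3.50 TPM. For Kif11 and Kif4 that control library fell within the knockdown range, and with Kif14 they were the 3 mitotic kinesins that overlapped. Kif20a (109, 71.5 and 84.1 against 50.6, 48.3 and 36.0 TPM), Kif18a (14.0, 9.81 and 14.1 against 6.65, 6.48 and 6.38 TPM) and Kif15 (14.4, 10.8 and 9.79 against 6.89, 5.89 and 5.40 TPM) did not overlap.

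Of the 21 Cenp genes, Cenpe, Cenpf, Cenph and Cenpm were called lower at 36 h and none higher, with a median of -0.57. Cenpm stood at 36.4, 42.7 and 37.2 TPM in control and at 13.9, 13.4 and 6.82 TPM in the knockdown (-1.74, SE 0.318, adjusted p = 0.0229). Cenpf stood at 17.5, 14.98 and 18.4 TPM against 5.94, 6.26 and 6.54 TPM (-1.31, adjusted p = 0.0294). Cenpe had 11.3, 9.42 and 11.6 TPM against 3.51, 4.45 and 3.88 TPM (-1.25, adjusted p = 0.023), and Cenph had 24.3, 27.5 and 29.5 TPM against 14.2, 13.3 and 14.9 TPM (-0.89, adjusted p = 0.0254). These 4 groups of values did not overlap. Cenpa, at 179, 206 and 197 TPM against 109, 119 and 113 TPM, did not overlap either but was not called (-0.77, adjusted p = 0.121). Of the transport and other kinesins none was called, with medians of -0.26 and 0.13. An unadjusted p under 0.05 was seen for 1 of 10 and 2 of 6, and for 2345 of all 14426 tested genes.

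The calls at 36 h were not steady. Each of the 5 was lost on leaving out library 1 or 4 of the control group, or any of the knockdown group (adjusted p = 0.0666 to 0.15). Kif20b and Cenph were also lost without control 0 h library 1 or 2 or the remaining control library at 36 h, number 3 (0.0567 to 0.072), and so was Cenpf without control 0 h library 2 (0.0582) or control 36 h library 3 (0.0541), and Cenpm without the latter (0.0586). In contrast, without knockdown 0 h library 2, which is in neither group but adds to the shared spread, 8 mitotic kinesins and 12 Cenp genes were called, where 11.7% of all genes were called lower and 6.88% higher. Among these 12, Cenpv was called higher. In a fit of the 6 libraries at 36 h alone, 8 mitotic kinesins and 11 Cenp genes were called, where 9.48% of all genes were lower and 5.61% higher. Those 11 too included a gene called higher.

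Within control, none of the 48 tested members was called between 0 h and 36 h (limma; 0.111% of all tested genes were called lower and 0.25% higher), and 1 of the 48, Cenpv, had an unadjusted p under 0.05, as 803 of all tested genes did. The groups did not overlap for 6 members, each lower at 36 h, where 12.3% of all tested genes did so in that direction and 9.55% in the other. The median was -0.13 for mitotic kinesins and -0.08 for Cenp genes. Kif2c, for instance, went from 44.2 ± 1.62 to 34.4 ± 5.78 TPM (SD, n = 3), and Kif20a from 88.8 ± 9.72 to 88.3 ± 19.2 TPM.

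Within the knockdown, 2 mitotic kinesins rose from 0 h to 36 h. Kif18b and Kif2c were called higher, where 0.998% of all tested genes were, and 10 of 11 values were positive, with a median of 1.00 against 0.33 for all genes. Kif18b went from 5.93 ± 2.22 to 18.1 ± 2.06 TPM (SD, n = 3 each; 1.51, SE 0.286, adjusted p = 0.0312) and Kif2c from 7.47 ± 2.51 to 18.0 ± 2.33 TPM (1.21, SE 0.247, adjusted p = 0.0457). All 3 libraries at 36 h lay above all 3 at 0 h for 8 mitotic kinesins and 8 Cenp genes, as for 15% of all tested genes, and the reverse held for Cenpv and Cenpx, as for 3.91%. The call of Kif18b was lost when a control library at 0 h, control 36 h library 4 or a knockdown library at 36 h was left out (adjusted p = 0.0611 to 0.148), whichever it was. That of Kif2c was lost on leaving out any of the 9 libraries outside the knockdown at 0 h (0.0632 to 0.195). Without knockdown 0 h library 3, 6 mitotic kinesins were called, where 9.56% of all genes were called higher, and without library 2 there were 4, where 1.94% were.

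Kif20a had the largest fitted value over time, from 14.0 ± 10.1 to 44.95 ± 7.87 TPM, but was not called (1.95, SE 0.518, adjusted p = 0.125). No transport kinesin, other kinesin or Cenp gene was called. An unadjusted p under 0.05 was seen for 0 of 10, 1 of 6 and 8 of 21, and for 2363 of all 14426 tested genes. Among the Cenp genes Cenpa was nearest, from 55.5 ± 18.4 to 113.6 ± 5.00 TPM (1.08, adjusted p = 0.059). Cenph and Cenpo, both lower than control at 0 h, stood at 12.1 ± 0.118 and 14.1 ± 0.799 TPM (0.21) and at 5.30 ± 2.61 and 5.01 ± 0.305 TPM (0.04) at the 2 times.

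The difference between the changes over time in the knockdown and in control was called for no gene of the table. At an unadjusted p under 0.05 there were 7 of 11 mitotic kinesins and 6 of 21 Cenp genes, and 766 of all 14426 genes. It was 1.58 (SE 0.349) for Kif2c and 1.76 (SE 0.404) for Kif18b, with adjusted p-values of 0.51 and 0.516. These comparisons share their libraries, so the smaller difference at 36 h and the rise in the knockdown are not separate observations.

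Most listed genes of the same processes outside the rule moved with the members. For the lists below, limma called 14.6% of all tested genes lower and 3.1% higher at 0 h. Of 26 other kinetochore and centromere genes, 21 were called lower at 0 h and none higher (median -1.70), among them Sgo2a, a protector of cohesion (-1.82, adjusted p = 0.00111), Sgo1 (-1.56, 0.00159), the checkpoint kinase Ttk (-2.16, 0.00177) and Ndc80, which binds microtubules (-2.06, 0.00247). Not called in that list were, among others, Itgb3bp, with the highest value (0.35, 0.175), and Zwint (-0.33, 0.55). Of 20 spindle and cytokinesis genes, 18 were called lower (median -2.11), led by Prc1, the bundler that Kif4 works with (-2.34, 0.000938), Cep55 (-2.22, 0.001), Ckap2 (-2.0, 0.00108) and Cit, the partner of Kif14 (-2.06, 0.00111). Numa1 (-0.40, 0.541) and Kifc1, whose symbol does not match the rule, were not called. All 10 replication genes, which act in S phase, were called lower (median -1.72), with Mcm5, a subunit of the helicase, at -2.22 (0.00208). Of 21 cargo adaptor and dynein genes only Kifap3, the adaptor of kinesin-2, was called (-0.79, 0.0338; median -0.52). At 36 h 4 kinetochore genes (Sgo1, Pmf1, Sgo2a and Mad2l1) and 4 spindle genes (Ckap2, Incenp, Prc1 and Nusap1) were called lower. None of the cargo or replication genes was called, where 1.64% of all tested genes were called lower and 0.894% higher. Between 0 h and 36 h in the knockdown, Cit, Plk1 and Mcm5 were called higher, where 0.998% of all tested genes were.

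Across the 12 libraries the gene of the whole tested table whose log2(TPM + 1) was most like that of Kif2c was Kif18b (Pearson r = 0.992), followed by Ndc80, Cdca5, Terf1 and Slc6a6 (0.979 to 0.981). The median r with Kif2c was 0.935 for the other 10 mitotic kinesins, 0.903 for Cenp genes, 0.540 for transport kinesins and 0.492 for all tested genes. These are descriptions over 12 points that share 4 group means. Within groups the medians were closer, at 0.610, 0.654, 0.443 and 0.607. Kif5b had r = 0.877 with Kif2c, and the genes most like Kif5b were Lhfpl6, Tspan7, Eif1a, Stambp and Btg1 (0.978 to 0.987), none of them a kinesin or Cenp gene.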

How the data were processed

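The deposited table holds gene-level TPM from the authors for 57180 genes in 12 libraries. HISAT2 2.2.1, HTSeq, DESeq2, FastQC and cutadapt 1.9.1 are listed, with build GRCm39 and no roles, in the submitters' processing notes, so the program that made the TPM is not stated. From these values, log2(TPM + 1) was fitted in limma 3.58.1 (R 4.3.3; lmFit, contrasts.fit, eBayes with a variance trend) over all 12 libraries with a mean for each of 4 groups, for the 14426 genes that reached 1 TPM in 3 or more libraries. Fold changes on this scale understate those of low genes. Two-sided p-values were adjusted by Benjamini-Hochberg over all tested genes in each of 5 comparisons, and the fit was tested on simulated data. Depth is unknown, so no counting error is given. Libraries were grouped by their titles, and replicate numbers were not taken as pairs. The members, gene lists, motifs and rules were chosen with earlier results of these data known.

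Per-library values were named for the mitotic kinesins, the 6 Cenp and 6 transport kinesin genes of highest mean TPM, called kinesins, Cenp genes of opposite sign at 0 h and, of each further list, the 4 of lowest adjusted p. Cenpe, Cenpf, Cenph, Kif1c and Kif2a were given in more detail after their values were seen, and Itgb3bp, Zwint, Numa1 and Kifc1 were named then as well. The settings varied were median-of-ratios scaling (alone and without knockdown 0 h library 2), the filter (none, or 5 TPM), the pseudocount (0.1), the replicate number as a block, fits of only the groups compared and each library left out. Leaving out that library and control 36 h library 4 together was added after seeing the data. The authors' group means were not used; their mean for control at 36 h covers libraries 1 and 3 and leaves out library 4.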

Additional observations from a re-analysis of the deposited data

How the results depend on the processing

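Each called member kept its sign under the alternatives run, but some class medians did not: for example, that of transport kinesins at 0 h was -0.43 and, with median-of-ratios scaling, 0.05, and that of mitotic kinesins over time in control was -0.13 and, without control 36 h library 3, 0.04. Libraries with equal replicate numbers showed little likeness: of 15 same-numbered pairs, 2 had deviations correlated above 0.1 (range -0.287 to 0.132). The median correlation was 0.009 for these pairs and -0.012 for pairs with different numbers. Deviations from means of 3 libraries cannot exclude that equal numbers mark pairs. With the replicate number as a block, 9 mitotic kinesins, 0 transport kinesins and 11 Cenp genes were called at 0 h, 0 mitotic kinesins and 0 Cenp genes at 36 h, and 0 mitotic kinesins over time in the knockdown (all genes: 5.79% lower at 0 h, 0.0208% lower at 36 h, 0.243% higher over time). In fits of only the groups compared, 0 mitotic kinesins, 0 transport kinesins and 0 Cenp genes were called at 0 h, where 9 genes of the table were called lower. At 36 h the same fits gave 8 mitotic kinesins, 1 transport kinesin and 11 Cenp genes (10 lower, 1 higher), where 9.48% of all genes were called lower and 5.61% higher, and over time in the knockdown 0 mitotic kinesins (all genes: 0.104% higher). Median-of-ratios scaling gave 4 mitotic kinesins at 36 h (all genes: 3.44% lower, 2.5% higher) and 1 Cenp gene over time in the knockdown (1.22% higher). Without knockdown 0 h library 2 as well, it gave 9 mitotic kinesins, 1 transport kinesin, 1 other kinesin and 11 Cenp genes at 36 h (all genes: 9.58% lower, 9.42% higher), and 4 mitotic kinesins and 2 Cenp genes over time in the knockdown (1.82% higher). A filter of 5 TPM gave 2 mitotic kinesins at 36 h (all genes: 2% lower), and no filter gave 0 mitotic kinesins over time in the knockdown (0.267% higher).

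With 1 library left out, transport kinesins called at 0 h ranged from 0 to 3. At 36 h mitotic kinesins ranged from 0 to 8, transport kinesins from 0 to 1 and Cenp genes from 0 to 12, while the share of all genes called lower ranged from 0.0624% to 11.7%. Over time in the knockdown mitotic kinesins ranged from 0 to 6 and Cenp genes from 0 to 6, while the share of all genes called higher ranged from 0.298% to 9.56%. Without knockdown 0 h library 2 and control 36 h library 4 together, 7 mitotic kinesins, 1 transport kinesin and 9 Cenp genes were called at 36 h (all genes: 6.29% lower, 3.69% higher), and 4 mitotic kinesins and 2 Cenp genes over time in the knockdown (1.23% higher). The causes were not tested. The unknown depth and 3 libraries a group limit every value.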
